A study of Sus scrofa with 63 samples.

Results

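A set of 10 genes commonly used to describe macrophages was followed in the jejunum of pig fetuses: CD163, MRC1, CSF1R, CD68, CD14, C1QA, C1QB, C1QC, AIF1 and MARCO. Every array probe annotated to 1 of these symbols was taken, together with the CD163 probe named after the transcript NM_213976, which gave 22 of the 60305 probes of the array. MARCO had no probe, and the other 9 genes, of 10896 named genes on the array, had between 1 and 7. Of the 22 probes, 20 passed the filter on dim probes (in at least 1 group, 75% or more of the arrays had to show the probe well above background) and were tested among 40515. The 2 others were CD163 A_72_P170001, above background on 18 arrays, and CD14 A_72_P756625, above background on 4.

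The study hybridised jejunum RNA of 63 male fetuses to 1 single-colour array each. Purebred Large White (LW) and Meishan (MS) fetuses and the reciprocal crosses LWMS (LW sire, MS sow) and MSLW (MS sire, LW sow) were collected at day 90 and day 110 of gestation. The comparison addresses how the intestine matures before birth in breeds that differ in piglet survival. At day 90 there were 9 LW, 6 MS, 9 LWMS and 8 MSLW fetuses, and at day 110 there were 9, 7, 9 and 6. Sows were inseminated with mixed semen, so that an MS sow carried MS and LWMS fetuses and an LW sow carried LW and MSLW fetuses. Litter mates therefore count here as independent fetuses, the labels do not name the sow, and the p-values below leave out the spread between litters. Values are log2 signals relative to the 75th percentile of the same array, so that 0 is the level of that percentile. Between 51.2% and 87.6% of the probes of an array were well above background. All 4 tested epithelial genes and all 5 tested smooth muscle genes were above background on all 63 arrays. They show epithelium and smooth muscle and do not tell the jejunum from other parts of the gut.

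Macrophages settle in the gut wall before birth and clear dying cells and debris. CD163 is their receptor for complexes of haemoglobin with haptoglobin and belongs to the scavenger receptors, as does MARCO. MRC1 is the mannose receptor and CSF1R the receptor of the growth factors on which macrophages depend. CD68 is a glycoprotein of late endosomes and lysosomes, and CD14 is a co-receptor for bacterial lipopolysaccharide. C1QA, C1QB and C1QC encode the 3 chains of C1q, which starts the classical complement cascade, and AIF1 encodes the calcium-binding protein IBA1. In RNA of a whole tissue, fewer macrophages and less RNA in each of them cannot be told apart.

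The probe sequences are shown because several probes are not independent measurements. The probe named NM_213976 has the same 60 bases as A_72_P177981, and A_72_P018171 has those of A_72_P624895, so that the 6 tested CD163 probes hold 4 distinct sequences and the 20 tested probes hold 18. The array annotation places A_72_P177981 at position 3336 of the CD163 transcript, A_72_P656100 at 3209 and A_72_P624895 at 2756. The first 30 bases of the NM_213976 probe and the whole of the other 2 are:
NM_213976: ggaaaatgggaattataacctggtgagttc
A_72_P656100: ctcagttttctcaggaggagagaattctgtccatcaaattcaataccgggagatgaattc
A_72_P624895: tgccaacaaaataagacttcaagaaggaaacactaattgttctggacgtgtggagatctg

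The 2 tested CD14 probes share no run longer than 5 bases and read separate stretches of the gene. The brightest probes of the 3 C1q chains share runs of at most 6 bases. The sequences for CD14, C1QB and C1QC are:
A_72_P050971 (CD14): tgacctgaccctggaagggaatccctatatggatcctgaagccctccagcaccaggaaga
O10660 (CD14): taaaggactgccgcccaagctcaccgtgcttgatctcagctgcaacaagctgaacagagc
A_72_P442926 (C1QB): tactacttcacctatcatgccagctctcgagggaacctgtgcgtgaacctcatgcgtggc
A_72_P403253 (C1QC): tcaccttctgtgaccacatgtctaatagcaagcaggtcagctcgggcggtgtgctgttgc

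By contrast, 2 of the 3 AIF1 probes overlap in 57 bases, marked in capitals, and are not independent measurements.
A_72_P176281 (AIF1): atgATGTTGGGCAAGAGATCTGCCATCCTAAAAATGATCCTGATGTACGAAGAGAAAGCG
A_72_P496351 (AIF1): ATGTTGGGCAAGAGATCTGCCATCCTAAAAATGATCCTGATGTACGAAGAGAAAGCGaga

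CD163 rose between day 90 and day 110 in fetuses carried by MS sows, 3.34-fold in MS and 2.43-fold in LWMS, and it was 2.19-fold higher with MS than with LW sows at day 110. In LW and MSLW fetuses the change with age did not pass the test. CD14 was the other gene with a call in these comparisons. Across all 8 groups the F test (adjusted p under 0.01) called 8 of the 20 probes, 5 of CD163, 1 of CD14 and 2 of AIF1, against 28.7% of all probes tested.

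At day 90 the CD163 signal (NM_213976 probe) of the 9 LW fetuses ran from -2.32 to -0.46 with a median of -1.64. The 6 MS fetuses lay between -2.31 and -1.02, median -1.79. The 4 genotypes overlapped widely at this age. The 9 LWMS fetuses lay between -2.75 and -1.02, median -1.50, and the 8 MSLW fetuses between -2.45 and -1.07, median -1.88.

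At day 110 the 7 MS fetuses lay between -0.22 and 0.49, median -0.13, the narrowest spread of the 8 groups (SD 0.27). The 9 LWMS fetuses lay between -1.02 and 0.69, median -0.56. Both groups carried by MS sows lay almost wholly above their values of day 90. The 9 LW fetuses lay between -1.94 and -0.21, median -0.80, and the 6 MSLW fetuses between -2.27 and -1.17, median -1.68. The MSLW fetuses had stayed within the range of day 90.

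**Figure D1:**
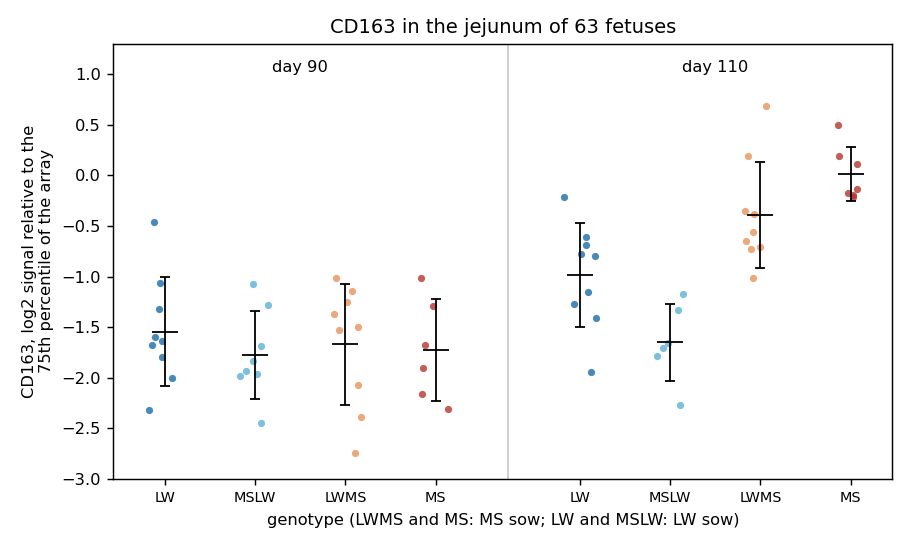
CD163 log2 signal (NM_213976 probe, set against the array's 75th percentile) of each of the 63 fetuses, by genotype and day of gestation, with group means and SD. All 7 MS fetuses of day 110 lie above all 6 of day 90, whereas none of the 6 MSLW fetuses of day 110 lies above all 8 of day 90.

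Ordered by their means, the groups ran from MSLW at day 90 (-1.78 ± 0.43, SD, n = 8) through MS at day 90, LWMS at day 90, MSLW at day 110 and LW at day 90 (-1.54 ± 0.54, n = 9). Neighbours among these 5 differed by 0.11 or less, well under the pooled SD. LW at day 110 followed at -0.98 ± 0.51 (n = 9), then LWMS at -0.39 ± 0.52 (n = 9) and MS at 0.01 ± 0.27 (n = 7). The steps from LW day 90 to LW day 110 (0.56 against a pooled SD of 0.53) and from LW day 110 to LWMS day 110 (0.59 against 0.52) exceeded the spread between fetuses, and the step from LWMS to MS (0.40 against 0.43) did not.

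The age contrasts ask whether CD163 changed over the last weeks of gestation in each genotype (limma, Benjamini-Hochberg over all probes tested, called at an adjusted p of 0.01 and a log2 difference of 0.5). In MS it rose by 1.74 ± 0.27 on the log2 scale (SE, adjusted p = 8.95e-06), and 7 of 7 fetuses of day 110 lay above every fetus of day 90. In LWMS it rose by 1.28 ± 0.23 (adjusted p = 2.92e-05), with 8 of 9 above every fetus of day 90. The rise was thus called in both genotypes with an MS mother. How many of all probes tested keep groups apart in this way was not counted, here or in the comparisons below. The log2 difference in LW was 0.56 ± 0.23 (adjusted p = 0.108), with 1 of 9 fetuses above all of day 90, and in MSLW it was 0.13 ± 0.26 (adjusted p = 0.817), with a 95% interval from -0.40 to 0.65. Averaged over the genotypes the change was 0.93 ± 0.12 (adjusted p = 1.39e-08).

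Other CD163 probes gave the same picture. In MS 4 of the 20 member probes were called, all of them CD163 and all higher, against 3.12% of all probes tested either way and 1.62% higher. In LWMS 5 were called, 4 of CD163 and 1 of CD14 and all higher, against 9.86% either way and 4.18% higher. Probes of 1 gene are not separate members. Counted on the shown probe of each gene, 1 of 9 genes was called in MS and 2 of 9 in LWMS. No member probe was called in LW (background 4.76%) or in MSLW (5.43%). Averaged over genotypes 5 CD163 probes were called higher and no other member, against 13.8% either way and 6.07% higher. Over the 6 CD163 probes the log2 change ran from 1.53 to 1.86 in MS, from 0.67 to 1.38 in LWMS, from 0.07 to 0.66 in LW and from -0.42 to 0.32 in MSLW. Over the 20 member probes the median difference was 0.47 in MS and 0.17 in LWMS, against -0.03 and -0.04 over all probes tested. These medians count each of the 6 CD163 probes and are not those of the genes. The 14 probes of the other members ran from -0.89 to 0.75 in MS and from -0.60 to 0.71 in LWMS, on both sides of no change. The 2 probes A_72_P018171 and A_72_P624895, above background on 33 and 27 arrays, had changes of 1.53 ± 0.55 and 1.77 ± 0.52 in MS that did not pass (adjusted p = 0.0745 and 0.0260). The 4 probes above background on all 63 arrays correlated with each other at r = 0.88 to 0.98 over the 63 arrays.

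**Figure D2:**
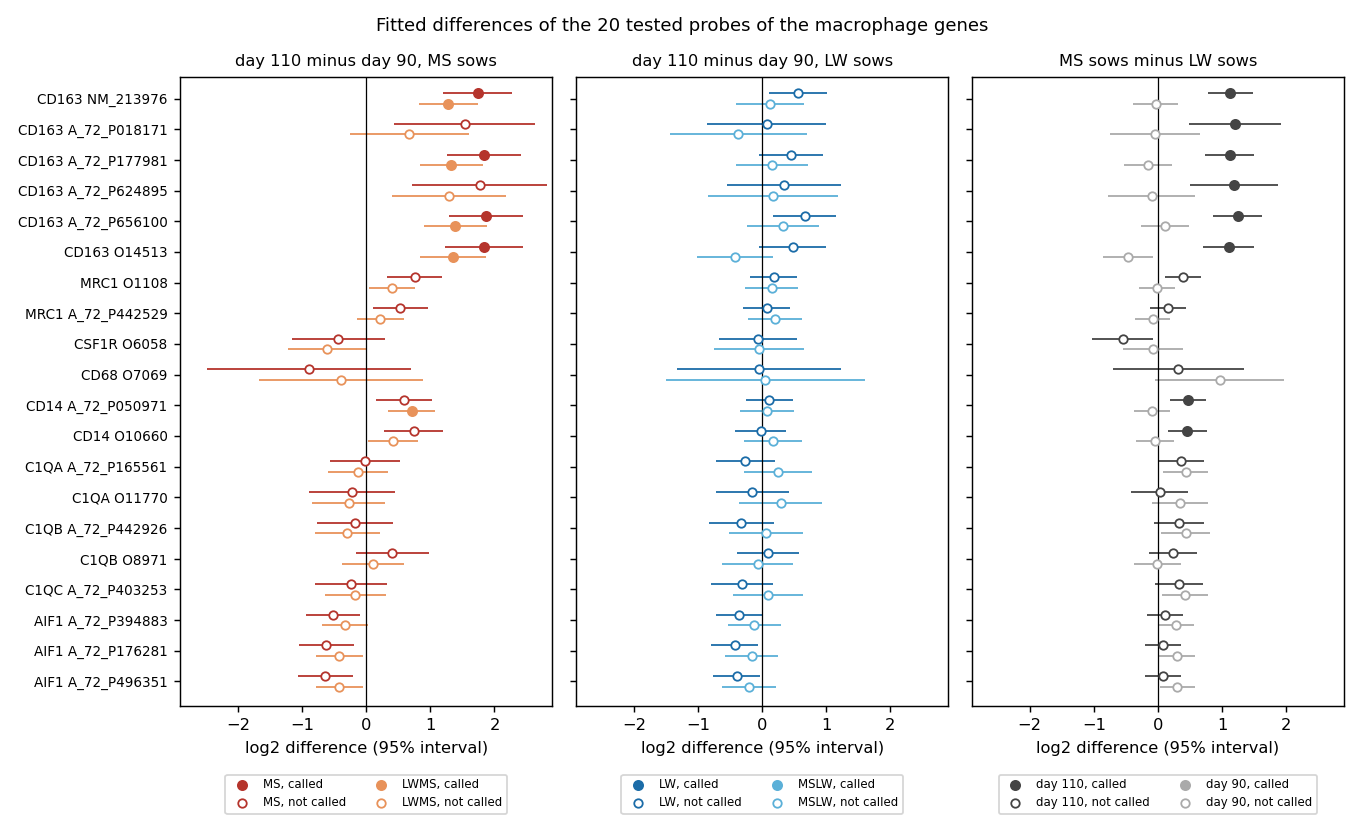
Fitted log2 differences with 95% intervals of the 20 tested probes. The panels show day 110 minus day 90 in fetuses of MS sows, the same in fetuses of LW sows, and MS sows minus LW sows at each day, and filled points are called. In the MS sow panel the CD163 points lie between 0.67 and 1.86, and in the LW sow panel no point is filled.

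The breed of the sow was compared by setting MS and LWMS against LW and MSLW (called at an adjusted p of 0.05). Litter mates share the breed of their sow, so this contrast rests on sows, which are fewer than the fetuses counted here. Its p-values leave out the spread between litters and can be too small. At day 90 CD163 did not pass (-0.04 ± 0.17, adjusted p = 0.927). At day 110 the 16 fetuses of MS sows lay between -1.02 and 0.69, median -0.21, and the 15 fetuses of LW sows between -2.27 and -0.21, median -1.28. The ranges overlapped, and 8 of the 16 lay above every fetus of an LW sow. The difference was 1.13 ± 0.18 (adjusted p = 8.01e-06), and over the 6 CD163 probes it ran from 1.099 to 1.244 with all 6 called. With the 2 CD14 probes this made 8 of 20 member probes, all higher, against 9.97% of all probes either way and 4.06% higher. These 8 probes belong to only 2 of the 9 genes. No member probe was called at day 90 (background 5.65%).

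The change with age itself differed by sow breed. It was larger by 1.17 ± 0.25 with MS sows (adjusted p = 0.0133), and 4 of the 20 member probes passed this interaction test, all of them CD163 and all higher, against 0.388% of all probes tested either way and 0.183% higher. By gene this was 1 of 9. The reciprocal crosses, which share both parental breeds and exchange the mother, pointed the same way at day 110: LWMS was 2.40-fold higher than MSLW (1.26 ± 0.26, adjusted p = 0.00421), and 9 of 9 LWMS fetuses lay above all 6 MSLW fetuses. There 4 member probes were called, all CD163 and all higher, against 0.664% either way and 0.326% higher, and none at day 90 (background 0.274%). These cross contrasts reuse the fetuses of the sow contrasts and are not separate evidence.

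Averaged over the breeds of the sow, the breed of the sire gave no call. MS minus LW sires averaged over ages was -0.14 ± 0.12 (adjusted p = 0.607), and the sire by age term was 0.01 ± 0.25 (adjusted p = 0.9999), with a 95% interval from -0.48 to 0.51. No member probe was called for either, against 6.95% and 0% of all probes. The CD163 means of day 110 went opposite ways in the sow breeds, which such an average cancels. With MS sows the group of MS sires was the higher (MS 0.01, LWMS -0.39). With LW sows it was the lower (MSLW -1.65, LW -0.98). The sire within each sow breed was not tested.

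Between the purebreds, CD163 was 1.99-fold higher in MS than in LW at day 110 (0.996 ± 0.245, adjusted p = 0.00389), and 6 of 7 MS fetuses lay above all 9 LW fetuses. It did not pass at day 90 (-0.18 ± 0.26, adjusted p = 0.787). At day 110, 3 CD163 probes and no other member were called, all higher (background 4.99% either way and 1.84% higher), and at day 90 none (3.58%). The breed by age term was 1.18 ± 0.35 and did not pass (adjusted p = 0.289), for this or any other member probe, in a test that called 0.0173% of all probes. The day 110 call was lost without MS fetus 627 (0.92, adjusted p = 0.0128), without LW fetus 670 (0.88, adjusted p = 0.0117) and with the slide as a block (0.88, adjusted p = 0.0160).

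The 63 arrays lay on 8 slides of 7 or 8 arrays, and each slide held 5 to 8 of the groups. Within slides that held both ages, CD163 was higher at day 110 on 5 of 5 for MS (by 1.46 to 2.27), on 6 of 6 for LWMS (by 0.68 to 2.15), on 6 of 7 for LW and on 3 of 4 for MSLW. Fetuses of MS sows were higher than those of LW sows at day 110 on 7 of 7 slides, by 0.66 to 1.31.

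The mannose receptor MRC1 (O1108) was called in no comparison. In MS the 6 fetuses of day 90 lay between -0.50 and -0.02, median -0.18, and the 7 of day 110 between 0.26 and 0.77, median 0.50. The ages did not overlap in MS, yet the difference of 0.75 ± 0.22 missed the threshold (adjusted p = 0.0200). The share of all probes without such overlap was not counted. In LWMS the range was -0.40 to 0.31 at day 90 (median -0.05) and -0.10 to 1.64 at day 110 (median 0.25), a difference of 0.40 ± 0.18 (adjusted p = 0.115). The medians in LW were -0.12 and 0.17, and in MSLW 0.05 and 0.04. Averaged over genotypes the difference of 0.37 ± 0.10 had an adjusted p of 0.00197 and was below the size of 0.5 required for a call. For the sow at day 110 it was 0.40 ± 0.14 (adjusted p = 0.0620). The other MRC1 probe, A_72_P442529, gave 0.53 ± 0.21 for age in MS (adjusted p = 0.128).

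CD14, the lipopolysaccharide co-receptor, rose with age in LWMS and was higher with MS sows at day 110. On probe A_72_P050971 the 9 LWMS fetuses lay between -3.91 and -2.46 at day 90, median -3.11, and between -3.09 and -1.50 at day 110, median -2.58. The ranges overlapped, with 3 of 9 above all of day 90, and the difference was 0.71 ± 0.18 (1.64-fold, adjusted p = 0.00326). The second probe, O10660, had 0.42 ± 0.20 (adjusted p = 0.125). In MS the ranges were -3.64 to -2.58 (median -3.06) and -2.97 to -1.95 (median -2.49), a difference of 0.59 ± 0.22 that did not pass (adjusted p = 0.0838). In LW and MSLW the differences were 0.11 ± 0.18 and 0.07 ± 0.21.

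For the sow at day 110, the 16 fetuses of MS sows lay between -3.09 and -1.50 on A_72_P050971 (CD14), median -2.57, and the 15 of LW sows between -3.27 and -2.33, median -2.85. MS sows were higher by 0.47 ± 0.14 (1.38-fold, adjusted p = 0.0239) on this probe and by 0.46 ± 0.15 (adjusted p = 0.0417) on O10660. The sow by age term was 0.56 ± 0.20 and did not pass (adjusted p = 0.215). The CD14 calls depended on the background correction: with the normexp correction the change in LWMS was 0.39 (adjusted p = 0.0287) and the sow difference 0.27 (adjusted p = 0.0861). The sow call was also lost with array weights (0.35, adjusted p = 0.0637). The LWMS call was lost without LWMS fetus 504 (0.64, adjusted p = 0.0104), 520 (0.62, adjusted p = 0.0121) or 611 (0.60, adjusted p = 0.0141).

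CSF1R, the growth factor receptor, was above background on 59 arrays and was not called in any comparison. The 16 fetuses of MS sows at day 110 lay between -6.12 and -3.52, median -4.07, and the 15 of LW sows between -4.42 and -2.55, median -3.64. The difference of -0.55 ± 0.24 did not pass (adjusted p = 0.135), and its sign was opposite to that of CD163. CD68 was above background on 32 arrays and 2 of its values were missing, so it was measured in 61 fetuses. Its SD reached 2.30 within a group, its largest age difference was -0.89 ± 0.79 in MS (adjusted p = 0.576), and no comparison called it.

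**Figure D3:**
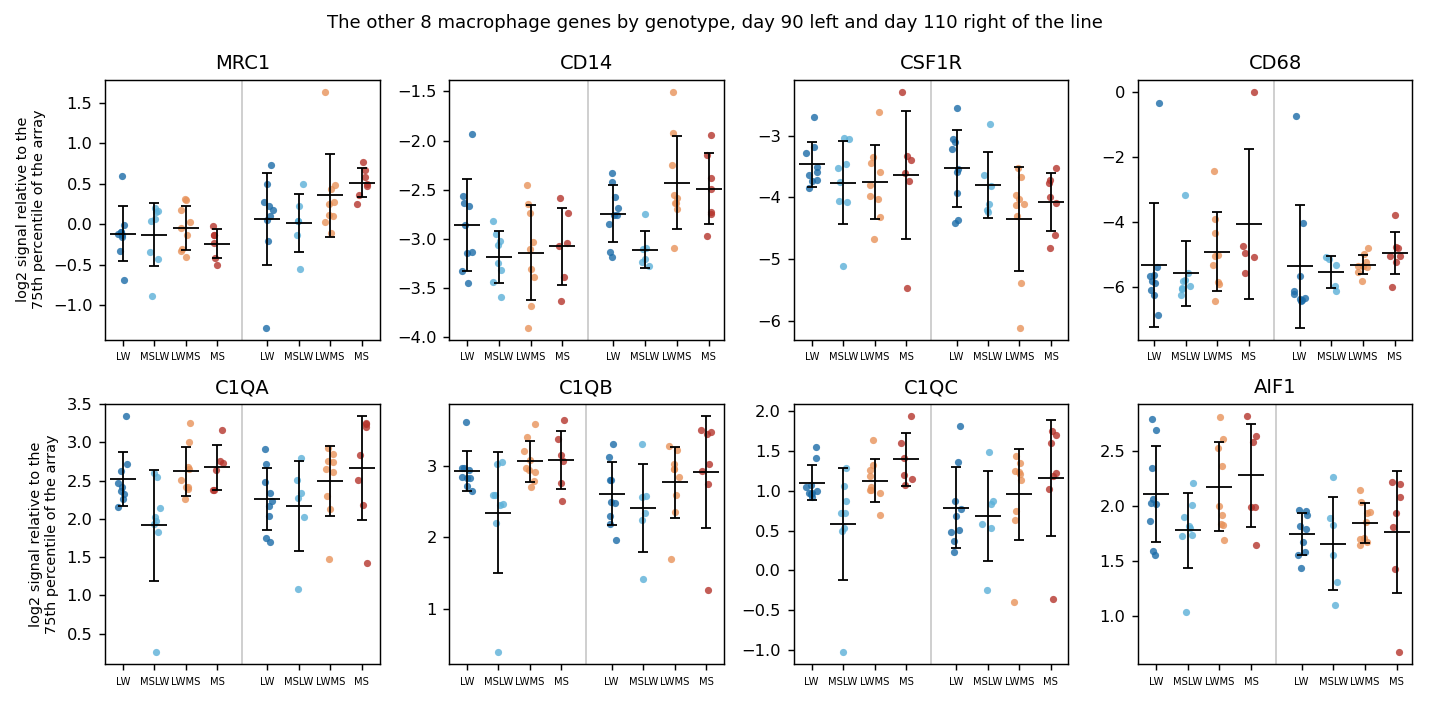
Log2 signal of the 8 other member genes in each fetus, 1 panel a gene, by genotype and day of gestation, with group means. MRC1 of MS fetuses does not overlap between the ages, and the C1q chains and AIF1 keep overlapping ranges at both ages in every genotype. In LW, 3 (C1QA), 5 (C1QB) and 7 (C1QC) of the 9 fetuses of day 110 lie below all 9 of day 90, and 1 lies above all for C1QC.

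On their brightest probes the 3 chains of C1q moved together, and no C1q probe was called for age or sow. A second C1QB probe, O8971, did not follow the brightest one (r = 0.09). C1QA (A_72_P165561) lay between 2.38 and 3.17 in the 6 MS fetuses of day 90, median 2.69, and between 1.42 and 3.25 in the 7 of day 110, median 2.84. The older group enclosed the younger. Averaged over genotypes the change with age was -0.04 ± 0.13 for C1QA, -0.18 ± 0.14 for C1QB and -0.16 ± 0.13 for C1QC (adjusted p = 0.848, 0.307 and 0.360). The MS minus LW sow difference at day 110 was 0.36 ± 0.18, 0.33 ± 0.19 and 0.32 ± 0.18 (adjusted p = 0.203, 0.305 and 0.288), and at day 90 it was 0.43 ± 0.18, 0.43 ± 0.19 and 0.42 ± 0.18 (adjusted p = 0.152, 0.191 and 0.182). The largest C1q difference was LWMS minus MSLW at day 90, 0.71 ± 0.24 for C1QA and 0.72 ± 0.26 for C1QB, and it did not pass (adjusted p = 0.243 and 0.285). MSLW fetus 450 was the lowest of its group in both, and without it, a refit chosen after seeing the data, this difference was 0.47 ± 0.22 for C1QA and 0.44 ± 0.23 for C1QB (adjusted p = 0.564 and 0.608). The sow difference at day 90 was then 0.31 for C1QA, 0.29 for C1QB and 0.31 for C1QC (adjusted p = 0.295, 0.357 and 0.333), and the averaged change of C1QA with age was -0.10 (adjusted p = 0.533).

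Averaged over genotypes AIF1 (IBA1) was lower at day 110, by less than the size required for a call. On A_72_P394883 the 6 MS fetuses lay between 1.65 and 2.82 at day 90, median 2.29, and the 7 of day 110 between 0.67 and 2.23, median 1.94. The ages overlapped in MS as in the other genotypes. The averaged difference was -0.33 ± 0.10 (adjusted p = 0.00490) on this probe, -0.41 ± 0.10 (adjusted p = 0.000680) on A_72_P176281 and -0.41 ± 0.10 (adjusted p = 0.000536) on A_72_P496351. In MS alone the 3 differences, -0.51, -0.62 and -0.64, were past that size and did not pass the test (adjusted p = 0.137, 0.0621 and 0.0552). The sow difference at day 110 was 0.11 ± 0.14 on A_72_P394883 (adjusted p = 0.693).

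CD163 was also set against other members on the same array, as the difference of the log2 signals, which asks for unequal change and not for a level. These 18 tests were chosen after the values had been seen and use 2-sided permutation tests with p adjusted over the 18. Relative to the mean of the 3 C1q chains, CD163 rose by 1.88 in MS (exact permutation, adjusted p = 0.00131, from the smallest p that 7 against 6 allows, 0.000583) and by 1.48 in LWMS (exact permutation, adjusted p = 0.000494), and 7 of 7 and 9 of 9 fetuses of day 110 lay above all of day 90. In LW the relative change was 0.86 (exact permutation, adjusted p = 0.0132), with 0 of 9 above all of day 90, and in MSLW it was -0.01 (exact permutation, adjusted p = 0.977). The C1q chains themselves changed by -0.26 (C1QA), -0.32 (C1QB) and -0.31 (C1QC) in LW, so the relative change is not that of CD163 alone. No cutoff was set for these 18 tests. Their adjusted p cannot be set beside that of CD163 itself, which was adjusted over all probes tested.

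Relative to AIF1 the changes were 2.25 in MS, 1.61 in LWMS and 0.92 in LW (exact permutation, adjusted p = 0.00131, 0.000494 and 0.00466), and 0.25 in MSLW (exact permutation, adjusted p = 0.489). Relative to MRC1 they were 0.98 in MS and 0.88 in LWMS (exact permutation, adjusted p = 0.00131 and 0.000494), 0.38 in LW and -0.02 in MSLW (exact permutation, adjusted p = 0.114 and 0.976). At day 110, fetuses of MS sows exceeded those of LW sows by 0.72 relative to C1q, 0.93 relative to AIF1 and 0.66 relative to MRC1 (permutation test, adjusted p = 0.00190, 0.000675 and 0.00131). At day 90 none of the 3 passed (-0.44, -0.30 and -0.04, permutation test, adjusted p = 0.0927, 0.244 and 0.872). The sow permutations shuffled single fetuses and not litters, so they too leave out the spread between litters.

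Across the 63 arrays CD163 went most closely with MRC1 (r = 0.73) and CD14 (r = 0.68) among the members, and less with C1QA (0.25), C1QB (0.20), C1QC (0.21), CSF1R (0.02) and AIF1 (-0.14). Over the 61 arrays with a value, r was 0.09 for CD68. With each group set to its own mean, so that only fetuses of the same genotype and age are compared, r was 0.63 with MRC1, 0.46 with CD14, 0.48 with CSF1R and 0.08 with AIF1. The brightest probes of the 3 C1q chains correlated with each other at 0.94 to 0.95 over the same arrays. The second C1QA probe, O11770, above background on 47 arrays, correlated with them at 0.72 to 0.76. The second C1QB probe, O8971, above background on all 63, did so at only -0.04 to 0.09. The points share each array's scaling and RNA quality, and these coefficients are descriptions.

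**Figure D4:**
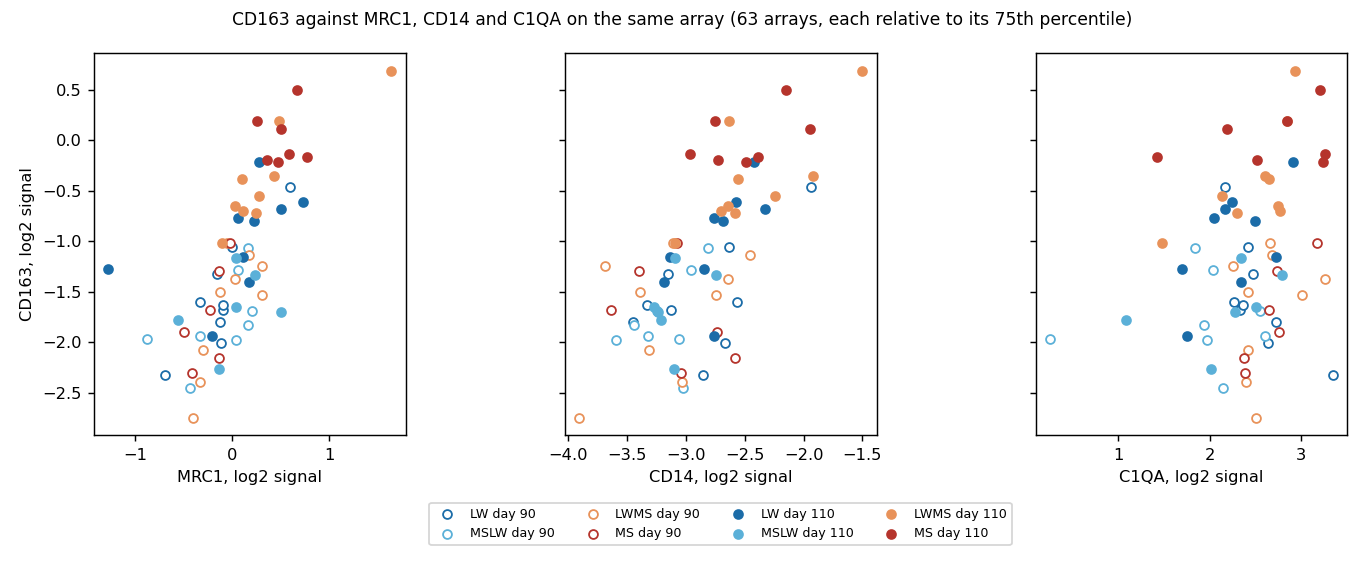
CD163 log2 signal against that of MRC1, CD14 and C1QA on the same array, 63 fetuses coloured by genotype, open at day 90 and filled at day 110. The points follow MRC1 (r = 0.73) and CD14 (r = 0.68) and scatter against C1QA (r = 0.25).

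Of 8930 named genes, the members left out, the one whose pattern over the 63 arrays was most like that of CD163 was VSIG4 (r = 0.80). It is the complement receptor of tissue macrophages. For 90% of the genes r lay between -0.39 and 0.39. VSIG4 rose by 1.47 ± 0.21 in MS (adjusted p = 1.78e-06) and by 0.86 in LWMS (adjusted p = 0.000282), with 0.52 ± 0.18 in LW (adjusted p = 0.0458) and 0.40 in MSLW (adjusted p = 0.204), neither called. It was higher with MS sows at day 110 by 0.60 ± 0.14 (adjusted p = 0.00239), and its sow by age term did not pass (0.70 ± 0.19, adjusted p = 0.0756). Others among the most alike were AGTR1 (angiotensin receptor, 0.71), ABCA6 (a lipid transporter family member, 0.70), CLEC3B (tetranectin, 0.68), DMBT1 (0.68), FGL2 (0.67), KLF9 (0.65), ITIH3 (0.65) and C15ORF48 (0.65). Of these, AGTR1, CLEC3B, DMBT1, KLF9 and C15ORF48 were called higher with age in LW as well as in MS. When group means were removed, ETS2 (0.56), GPR1 (0.52), C5AR1 (0.51) and VSIG4 (0.48) came first among these genes. For 90% of them r then lay between -0.27 and 0.27, and the member MRC1 had 0.63.

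Among 9 further tested genes of macrophage identity and lysosomes, 2 were called higher with age in MS, LYZ (lysozyme, 4.15 ± 0.97, adjusted p = 0.00344) and VSIG4, and none lower. Of all probes tested, 3.12% were called either way in MS and 1.62% higher. The median of the list was 0.25 against -0.03 over all probes. In LWMS LYZ and VSIG4 were called, and in LW 1 of the 9 was called, LYZ (3.96 ± 0.82, adjusted p = 0.000563), and in MSLW none. Of 9 other scavenger and pattern receptors and their partners, CD5L (a secreted scavenger protein of macrophages) and LBP (lipopolysaccharide binding protein) were called higher with age in all 4 genotypes, CD5L by 3.75 ± 0.77 in MS and 7.49 ± 0.77 in MSLW. AXL, a receptor tyrosine kinase of the uptake of dying cells, was called lower with age in LWMS (-0.52 ± 0.15, adjusted p = 0.00695). None of the 3 was called for the sow at day 110. MSR1, a class A scavenger receptor, was higher in MS than in LW at day 110 by 1.01 ± 0.27 (adjusted p = 0.00805).

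Of 10 genes that handle haemoglobin and haem, none was called for age in MS (background 3.12%) or LW (4.76%). In LWMS 1 was called higher (background 9.86%), as was 1 in MSLW (5.43%). Averaged over genotypes HPX (hemopexin, 2.69 ± 0.28, adjusted p = 1.19e-11) and HMOX1 (haem oxygenase, 0.68 ± 0.17, adjusted p = 0.00103) were higher at day 110. HP, haptoglobin, the partner of haemoglobin in the ligand of CD163, was not called (-0.31 ± 0.12 averaged over genotypes, adjusted p = 0.0259). SLC48A1, a haem transporter, was higher with MS sows at day 110 by 0.49 ± 0.17 (adjusted p = 0.0478). Of 6 partners of the C1 complex, C2 was higher (0.68 ± 0.17) and C4A lower (-0.73 ± 0.12) at day 110 averaged over genotypes. Of 5 growth and transcription factors of macrophages MAF was higher (0.69 ± 0.19), and of 9 genes of monocyte recruitment TGFB3 was lower (-0.66 ± 0.10). CCL2, the monocyte chemoattractant, was lower with MS sows at day 110 by -0.61 ± 0.18 (adjusted p = 0.0171).

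Markers of other cells were read alongside. None of 6 general leukocyte genes was called for age or for the sow at either day. Of all probes tested, between 3.12% (age in MS) and 13.8% (age averaged over genotypes) were called in these contrasts. At such shares a list of 6 genes often holds no call. Their summed level (linear signal in units of the 75th percentile) had medians between 14.1 and 18.8 in the 8 groups. PTPRC (CD45) changed by 0.12 ± 0.20 in MS (adjusted p = 0.784). Of the 3 tested genes of red cells, HBB, which encodes beta globin, fell by 2.63 in MS (SE 0.61, adjusted p = 0.00326), fell by 2.96 in LWMS (SE 0.52, adjusted p = 2.04e-05), was -0.20 ± 0.52 in LW (adjusted p = 0.876) and -0.94 ± 0.59 in MSLW (adjusted p = 0.330), and was lower with MS sows at day 110 by -1.63 ± 0.40 (adjusted p = 0.00483). HBE1 fell by 1.73 in LWMS (SE 0.48, adjusted p = 0.00654). HBB thus moved in the same genotypes as CD163 and in the other direction, and its part in the CD163 result was not tested. The summed level of the 3 red cell genes ran from 12.3 to 31.4 at day 90 and from 9.97 to 26.4 at day 110 over all groups.

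Of 9 monocyte and neutrophil genes, 0 were called for age in MS and CXCR2 was called higher in LW, LWMS and MSLW (1.35, 0.86 and 1.17). Averaged over genotypes VCAN (the proteoglycan versican) was called lower with age (-0.80 ± 0.14, adjusted p = 6.10e-06), and CXCR2 was higher with MS sows at day 90 (0.64 ± 0.16, adjusted p = 0.00708). With MS sows at day 110, MPO (myeloperoxidase, -1.79 ± 0.54), CD2 of 6 T cell genes (-0.59 ± 0.20), CD83 of 3 dendritic cell genes (-1.74 ± 0.27) and KIT of 3 mast cell genes (-0.49 ± 0.16) were lower, and none of these lists had a gene called higher. The list medians were -0.35 for monocytes and neutrophils, -0.17 for T cells, -0.04 for dendritic cells and 0.02 for mast cells. Each call was thus that of 1 gene and not of its list. With MS sows at day 90, 1 dendritic cell gene and 1 mast cell gene were already called lower (5.65% of all probes either way). None of 4 B cell genes was called for age or the sow. Of the 4 epithelial genes EPCAM was higher with age in MS (0.61 ± 0.13), of the 5 smooth muscle genes ACTA2 was lower in LWMS and MSLW (-0.75 ± 0.14 and -0.58 ± 0.16), and no gene of 5 for endothelium was called for age or the sow at day 110. The shares of all probes called, given above, apply to these lists too, and lists this short often hold no call. The part of these cell types in the CD163 result was not tested.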

How the data were processed

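Each sample was a jejunum RNA extract on a single-colour Agilent 60-mer array. The deposited scanner files give spot intensity from Agilent Feature Extraction 10.10.1.1, background-corrected by that software. A matrix of the authors, used as an alternative, holds log2 values of 39446 probes after quantile normalization by the authors, including 19 of the 22 member probes. From the scanner intensity, outlier spots and 1319 control spots were left out, spots of a probe averaged, and log2 signal taken minus the array's 75th percentile. No spot was saturated. limma 3.58.1 in R 4.3.3 fitted 8 group means with eBayes and Benjamini-Hochberg adjustment over 40515 probes. The methods' random sow effect was not fitted, since the labels do not name sows. The number of arrays limits the precision. Where a gene had several probes, the tested probe of highest mean was shown, and NM_213976 for CD163. Other genes named were from the 10 most like CD163 by correlation and the called genes of the lists. 1 gene of these and 1 probe sequence are not reported here. The members and gene lists were chosen with earlier results of these data known. On simulated data with 200 probes changed by 1 on the log2 scale, 64.5% were recovered in the sow by age test and 82.5% in the sow test at day 110. With a change of 1.5, 78.5% were recovered for age in MS and 59.0% in the breed by age test. The simulated noise was independent between arrays, without litters, and only these 200 probes changed. Recovery in the data can therefore differ. Alternatives were the authors' values, normexp (offset 50), quantile normalization, median centring, other filters, the slide as a block, array weights, and leaving out fetuses.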

Additional observations from a re-analysis of the deposited data

Results flagged for a closer look

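The change of CD163 with age differed between fetuses of MS and of LW sows by 1.17 on the log2 scale (limma interaction term, adjusted p = 0.0133).

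In 16 of 72 sets of 1 gene in 1 group, the highest or lowest fetus stood apart from the others by Dixon's test at its 95% critical value, which chance alone does in about 1 in 20 sets. MSLW fetus 450 at day 90 was the lowest of its group in 4 genes, with log2 signals of 0.257 for C1QA, 0.397 for C1QB, -1.03 for C1QC and 1.04 for AIF1. LW fetus 462 at day 90 was the highest in C1QA (3.35) and C1QB (3.62). MS fetus 632 at day 110 was the lowest in C1QB (1.27) and C1QC (-0.37), and LWMS fetus 405 at day 110 the lowest in C1QC (-0.40). MRC1 stood apart at 1.64 in LWMS fetus 611 and at -1.28 in LW fetus 572, both of day 110, and CD14 at -2.75 in MSLW fetus 476 of day 110.

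CD68 stood apart upwards in 4 groups, at -0.73 in LW fetus 469 of day 110, at -0.32 in LW fetus 484 of day 90, at -3.16 in MSLW fetus 498 of day 90 and at 0.0216 in MS fetus 532 of day 90. No CD163 set was among the 16.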

How the results depend on the processing

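The CD163 changes with age in MS (1.48 to 1.75), in LWMS (1.06 to 1.35) and averaged over genotypes (0.79 to 0.94), the sow difference at day 110 (0.96 to 1.18) and the sow by age term (0.97 to 1.22) kept their sign and their call under every alternative run, leaving out each fetus included (ranges without that). With the slide as a block, CD163 MS minus LW at day 110 was 0.88 and not called, 1 member probe in place of 3 was called, the MSLW age change was -0.0445 and the sire by age term -0.0896. Array weights gave -0.11 and -0.0779 for those last 2 values and 13 probes in the F test. Quantile normalization gave 0.00911 for the sow at day 90 and 1 probe called for the sire. For the sow at day 110, 4 member probes in place of 8 were called with normexp, and 4 of the 13 tested when probes had to be above background on all arrays. Without the arrays of lowest and highest share above background, an alternative added after seeing the data, as were those for CD14, LWMS and the sow counts, the sire by age term was -0.0096. The cause of these shifts was not tested.

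Leaving out each fetus in turn, CD163 MS minus LW at day 110 ran from 0.88 to 1.09 and its probes called from 1 to 3, the sow difference at day 90 from -0.11 to 0.0298, and the sire by age term from -0.0558 to 0.0829. No pairing by fetus was possible because fetus numbers are unique and the groups share none. The slide, a batch, was fitted as a block among the alternatives. Litter mates were counted as independent, CD68 was above background on 32 of 63 arrays, and 1 probe stands for CSF1R, CD68 and C1QC each.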
